A study of Mus musculus with 12 samples.

Results

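Cell cycle inhibitors that mark senescent cells, together with the retinoblastoma protein through which they act and a pair of senescence markers, were followed across 4 groups of mouse lung. The 8 genes were Cdkn2a, Cdkn2b, Cdkn2c, Cdkn1b, Cdkn1c, Rb1, Glb1 and Gdf15, taken by symbol. A gene was measured where the platform annotation paired a probe with its symbol alone, and where several probes qualified the one brightest on average across the 12 arrays was used. This gave values for 6 of the 8 genes, of 22180 genes measured in all. Glb1 was paired only with a probe that it shares with Tmppe, and Gdf15 was not among the symbols of the annotation used here, so neither has a value below.

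RNA of lung tissue from female mice aged 10 weeks was measured on 12 Affymetrix arrays, 3 per group, each labelled as a biological replicate. The groups were Zmpste24-/- ventilated, Zmpste24-/- baseline, wild type ventilated and wild type baseline. Zmpste24 is the protease that matures prelamin A, and mice without it are used as a model of premature ageing. Ventilated mice received 100 breaths a minute at an inspiratory pressure of 15 cmH2O for 2.5 hours, with an oxygen fraction of 0.21 and no end-expiratory pressure. Baseline mice were intact, so anything else done to ventilated mice is part of the ventilation comparisons. The labels do not say in which cells the deletion acts, and no ventilated time other than 2.5 hours was analysed here.

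Progress from G1 to S phase depends on kinases bound to D-type and E-type cyclins, which phosphorylate the retinoblastoma protein and release E2F factors. Inhibitors of the INK4 family bind CDK4 and CDK6 and keep D-type cyclins away, whereas CIP/KIP inhibitors bind cyclin and kinase together and act chiefly on the CDK2 complexes. Cdkn2a transcripts accumulate with age and in senescent cells, and lysosomal beta-galactosidase, the product of Glb1, underlies a common stain for such cells.

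Both INK4 genes on mouse chromosome 4 that lie side by side, Cdkn2a and Cdkn2b, have their own start sites, and Cdkn2a has a pair of them. Its upstream start gives the transcript for ARF, which inhibits MDM2, and its downstream start gives the transcript for the kinase inhibitor p16. A single probe represented Cdkn2a, so the transcripts of the 2 starts were not separated. The 250 bases before each of these starts are shown to place the starts, followed by those of Cdkn2b, Cdkn2c (its upstream start) and Cdkn1b, the members with a RefSeq promoter (build GRCm38.p6) that passed the test in a comparison. Capitals mark matches on either strand to TTTNGCGC (E2F), TGACGTCA (CREB and ATF), TGANTCA (AP-1), TGTTTAC (forkhead box O), CCAAT (NF-Y) or GGGCGG (SP and KLF), and no matches overlapped in these windows.
Cdkn2a, ARF start, chr4:89294620-89294869, minus strand: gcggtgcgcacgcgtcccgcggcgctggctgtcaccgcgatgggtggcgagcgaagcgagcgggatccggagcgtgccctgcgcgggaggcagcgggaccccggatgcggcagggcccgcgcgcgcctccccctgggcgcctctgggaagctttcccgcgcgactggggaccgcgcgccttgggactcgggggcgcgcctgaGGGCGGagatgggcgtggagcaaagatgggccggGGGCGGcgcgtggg
Cdkn2a, p16 start, chr4:89282193-89282442, minus strand: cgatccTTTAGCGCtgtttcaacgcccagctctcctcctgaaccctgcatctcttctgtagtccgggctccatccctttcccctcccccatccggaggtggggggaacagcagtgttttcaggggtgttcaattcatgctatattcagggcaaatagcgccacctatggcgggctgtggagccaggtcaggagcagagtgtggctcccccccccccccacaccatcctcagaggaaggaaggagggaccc
Cdkn2b, chr4:89311033-89311282, minus strand: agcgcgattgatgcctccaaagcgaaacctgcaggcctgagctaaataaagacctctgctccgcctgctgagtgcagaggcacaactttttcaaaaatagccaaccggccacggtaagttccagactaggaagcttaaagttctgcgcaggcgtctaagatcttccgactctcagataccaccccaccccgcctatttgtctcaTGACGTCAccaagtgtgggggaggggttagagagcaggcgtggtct
Cdkn2c, chr4:109666757-109667006, minus strand: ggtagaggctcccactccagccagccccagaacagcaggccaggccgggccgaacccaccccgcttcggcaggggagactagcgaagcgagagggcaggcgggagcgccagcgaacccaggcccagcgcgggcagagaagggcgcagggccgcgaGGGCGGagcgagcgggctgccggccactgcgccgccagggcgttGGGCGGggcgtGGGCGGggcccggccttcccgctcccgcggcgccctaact
Cdkn1b, chr6:134920151-134920400, plus strand: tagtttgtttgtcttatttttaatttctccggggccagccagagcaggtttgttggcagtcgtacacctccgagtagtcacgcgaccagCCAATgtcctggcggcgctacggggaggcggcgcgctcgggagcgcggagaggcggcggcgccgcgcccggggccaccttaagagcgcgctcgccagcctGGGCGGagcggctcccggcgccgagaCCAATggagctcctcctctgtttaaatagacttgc
The windows differed in base composition and in the matches they held. The window before the ARF start was 78.4% G and C, against 60.0% before the p16 start, 53.6% before Cdkn2b, 77.2% before Cdkn2c and 64.4% before Cdkn1b. The Cdkn2b window held 1 CREB and ATF match, a motif found in 1.55% of 32851 promoter windows of this length. The p16 window held 1 match to the E2F letters, with A at the N that stands for any base. Those letters were found in 1.13% of windows. GGGCGG, present in 32.7% of windows, matched 2 times before the ARF start, 3 times before Cdkn2c and 1 time before Cdkn1b, and CCAAT, present in 33.8%, matched 2 times before Cdkn1b. AP-1 and forkhead box O letters, present in 6.75% and 3.17% of windows, were in none of these 5 windows. A match describes the letters only, and no binding was measured.

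Array medians lay between 5.35 and 5.42 on the deposited log2 scale. Pairs of arrays correlated over all probes, which are no replicates of each other, at 0.986 to 0.992 within groups and 0.970 to 0.988 between groups. Zmpste24, the deleted gene, followed the labels. It stood at 5.01, 5.73 and 5.43 in ventilated and 5.91, 5.31 and 5.44 in baseline Zmpste24-/- lungs, against 8.50 to 9.28 in the 6 wild type lungs (genotype difference -3.51 ± 0.22 under ventilation and -3.29 ± 0.22 at baseline). Alveolar type 2 markers averaged 11.2 to 11.6 and alveolar type 1 markers 10.2 to 10.7 in every array. Probes of 7 Y-linked genes, which female mice lack, read between 3.33 and 5.51, so the value that a probe gives without its transcript differs between probes and no background level was set. Liver transcripts were highest in wild type baseline lung 2, where the mean of 8 liver markers was 7.97, against 5.03 to 6.13 in the other 3 groups. A gene passed when its limma p was under 0.05 after Benjamini-Hochberg adjustment across the 22180 genes of that comparison. Differences below are log2 values with their standard error.

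The 6 measured members did not change together. Ventilation was followed by more Cdkn2b in Zmpste24-/- lungs and by less Cdkn2c and Cdkn1b in wild type lungs, and ventilated Zmpste24-/- lungs had more Cdkn1b and Cdkn1c than ventilated wild type lungs. In bulk lung RNA, fewer cells of a type and less RNA per cell cannot be told apart. Cdkn2a, whose p16 product is the classical senescence inhibitor, and Rb1 passed in no comparison. The Cdkn2a probe read low, at 6.04 to 6.52, so the size of its differences is uncertain. In ventilated against baseline Zmpste24-/- lungs 1 of 6 members passed, beside 16.4% of all genes, and it was higher, beside 8.89% of genes higher and 7.52% lower. For ventilation in wild type lungs 2 of 6 members passed, beside 7.2% of all genes. Both were lower, beside 3.67% of genes higher and 3.53% lower. Between genotypes under ventilation 2 of 6 members passed, beside 10.8% of all genes. Both were higher, beside 4.72% of genes higher and 6.08% lower, and among all calls of that comparison the share higher was 43.7%, or 61.1% with array medians subtracted. At baseline limma called 0 of 6 members, beside 6.31% of all genes, 2.2% higher and 4.11% lower. Of these members 2 had an unadjusted p under 0.05 in limma, beside 4635 of 22180 genes. The interaction is the difference between the genotypes in their change with ventilation. No member passed it in limma, beside 0.316% of all genes, 0.266% higher and 0.0496% lower. An unadjusted limma p under 0.05 was found for 1 of 6 members, beside 2598 of 22180 genes. The median member difference was 0.03 for ventilation in Zmpste24-/- lungs, -0.13 for ventilation in wild type lungs, 0.27 between genotypes under ventilation and -0.03 at baseline, while the medians over all genes were -0.01, -0.01, 0.01 and -0.01.

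**Figure D1:**
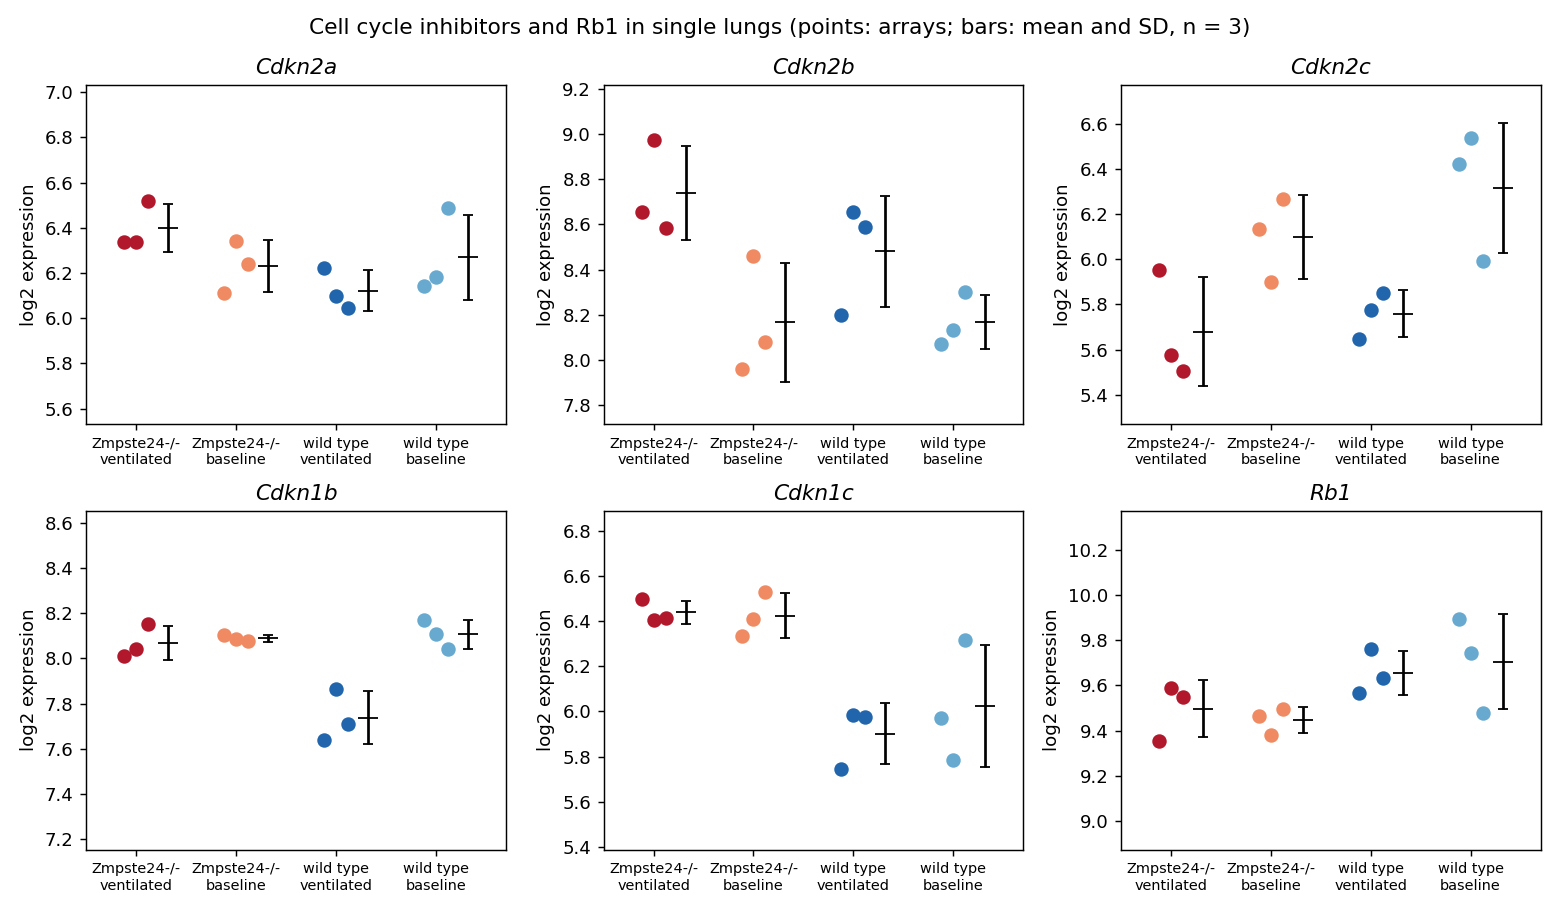
Log2 expression of the 6 measured genes in every lung, by group. Each point is 1 array and the bars are the mean and SD of 3 arrays. All panels span the same 1.5 log2 units, and the 3 wild type ventilated points of Cdkn1b (7.64 to 7.87) lie under the other 9 points of that gene (8.01 to 8.17).

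Cdkn2b encodes p15, an INK4 inhibitor of CDK4 and CDK6 that is known as a target of TGF-beta signalling. Its log2 values were 8.65, 8.97 and 8.59 in Zmpste24-/- ventilated lungs, against 7.96, 8.46 and 8.08 in Zmpste24-/- baseline lungs. Wild type values were 8.20, 8.66 and 8.59 after ventilation, against 8.07, 8.13 and 8.30 at baseline. All 3 ventilated Zmpste24-/- lungs lay above all 3 baseline ones, as 33.4% of genes did in either direction, while the wild type groups overlapped. Cdkn2b rose by 0.57 ± 0.15 in ventilated Zmpste24-/- lungs (1.49-fold, 95% interval 0.25 to 0.90 on the log2 scale, adjusted p = 0.0182). The difference in wild type lungs was 0.31 ± 0.15 (adjusted p = 0.263), and the interaction was 0.26 ± 0.21 (adjusted p = 0.714), so a difference between the genotypes in this response was not shown. The call in Zmpste24-/- lungs was lost without baseline lung 1, baseline lung 3 or ventilated lung 2 (adjusted p = 0.0779, 0.0699 and 0.0898; range 0.00665 to 0.0898 with 1 array left out), and the difference then was 0.45 to 0.53. The genotypes did not differ detectably in Cdkn2b at baseline, at -0.00 ± 0.15 with a 95% interval from -0.33 to 0.32, or under ventilation, at 0.26 ± 0.15 (adjusted p = 0.326).

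Cdkn2c encodes p18, the INK4 member best known for restraining the cell cycle during differentiation. It stood at 5.95, 5.58 and 5.51 in Zmpste24-/- ventilated lungs and 6.13, 5.90 and 6.27 in Zmpste24-/- baseline lungs, which overlapped in range. Wild type lungs gave 5.65, 5.78 and 5.85 after ventilation and 6.42, 6.54 and 5.99 at baseline, with no overlap, as in 22.6% of genes. Cdkn2c fell by 0.56 ± 0.15 in ventilated wild type lungs, to 0.679 of the baseline level (adjusted p = 0.0399). The difference in Zmpste24-/- lungs, -0.42 ± 0.15, did not pass (adjusted p = 0.0774), and the interaction was 0.14 ± 0.21 (adjusted p = 0.869). Of 6 fits that left out 1 wild type array, 1 kept the wild type call. The adjusted p ran from 0.0121 without baseline lung 3 to 0.145 without baseline lung 2, the lung with the highest mean of liver markers. It was 0.113, 0.117, 0.0826 and 0.081 without baseline lung 1 and ventilated lungs 1, 2 and 3. Fitting the 2 wild type groups alone also ended it (adjusted p = 0.064). In Zmpste24-/- lungs the difference passed only without ventilated lung 1 (-0.56 ± 0.15, adjusted p = 0.0274), of the 6 fits with 1 array left out. Differences at low readings such as these are of uncertain size, since probes without a transcript read unequally.

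The probe of Cdkn2a, the gene of p16 and ARF, gave low readings that varied little between groups. As for Cdkn2c, the size of differences at such readings is uncertain, since probes without a transcript read unequally. Zmpste24-/- lungs gave 6.34, 6.34 and 6.52 after ventilation, against 6.11, 6.34 and 6.24 at baseline. Wild type lungs gave 6.22, 6.10 and 6.04 after ventilation, against 6.14, 6.18 and 6.49 at baseline. The group means ran over 0.28 log2 units, against a pooled SD within groups of 0.13. Under ventilation the 3 Zmpste24-/- lungs all lay above the 3 wild type lungs, as 30.3% of genes did in either direction, but the difference of 0.28 ± 0.11 did not pass (adjusted p = 0.118). At baseline it was -0.04 ± 0.11, with a 95% interval from -0.26 to 0.19, and it lay between -0.10 and 0.07 with 1 array left out, the highest without wild type baseline lung 3. Ventilation differences were 0.17 ± 0.11 in Zmpste24-/- lungs (adjusted p = 0.359) and -0.15 ± 0.11 in wild type lungs (adjusted p = 0.485), and the interaction was 0.31 ± 0.15 (adjusted p = 0.438).

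Cdkn1b encodes p27, the CIP/KIP inhibitor that keeps resting cells out of the cycle and is controlled largely through its breakdown, which RNA does not show. Its log2 values were 8.01, 8.04 and 8.15 in Zmpste24-/- ventilated lungs and 8.10, 8.08 and 8.08 in Zmpste24-/- baseline lungs. Wild type ventilated lungs stood at 7.64, 7.87 and 7.71, against 8.17, 8.11 and 8.04 in wild type baseline lungs. The wild type ventilated lungs were thus the low group, and the other 3 groups overlapped. Cdkn1b fell by 0.37 ± 0.08 in ventilated wild type lungs, to 0.775 of baseline (adjusted p = 0.0149), and was 0.33 ± 0.08 higher in ventilated Zmpste24-/- than in ventilated wild type lungs (adjusted p = 0.0193). Both calls rest on the same 3 wild type ventilated arrays and are not independent. In Zmpste24-/- lungs the ventilation difference was -0.02 ± 0.08, with a 95% interval from -0.20 to 0.16, and the interaction, 0.35 ± 0.12, did not pass (unadjusted p = 0.00945, adjusted p = 0.23). The wild type call was lost without baseline lung 1 or ventilated lung 1 or 3 (adjusted p = 0.0518, 0.0575 and 0.0622; range 0.0105 to 0.0622) and with the 2 wild type groups fitted alone (0.0692). The genotype call was lost without wild type ventilated lung 1 or 3 or Zmpste24-/- ventilated lung 3 (adjusted p = 0.0604, 0.068 and 0.0837; range 0.0181 to 0.0837).

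Cdkn1c encodes p57, an imprinted CIP/KIP inhibitor expressed mainly from the maternal allele. It stood at 6.50, 6.40 and 6.41 in Zmpste24-/- ventilated lungs, against 5.75, 5.98 and 5.97 in wild type ventilated lungs. At baseline the values were 6.33, 6.41 and 6.53 in Zmpste24-/- lungs, against 5.97, 5.79 and 6.31 in wild type lungs. All 6 Zmpste24-/- lungs lay above all 6 wild type lungs, the closest being 6.33 and 6.31, a separation in either direction that 4.42% of all genes had. By contrast, ventilated and baseline lungs of each genotype overlapped. The genotype difference was 0.54 ± 0.12 under ventilation (1.45-fold, adjusted p = 0.0118) and stayed past the threshold in all 6 fits that left out 1 array of these groups (adjusted p = 0.0276 to 0.0447). At baseline it was 0.40 ± 0.12 and did not pass (adjusted p = 0.0678), although the groups did not overlap there, as in 23.9% of genes. Without wild type baseline lung 3 the baseline difference was 0.54 ± 0.10 and passed (adjusted p = 0.0109). Ventilation differences were 0.02 ± 0.12 in Zmpste24-/- lungs and -0.12 ± 0.12 in wild type lungs, and the interaction was 0.14 ± 0.17 (adjusted p = 0.829). As for Cdkn2c, the size of differences at these low readings is uncertain, since probes without a transcript read unequally.

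Rb1 encodes the retinoblastoma protein, the substrate through which the inhibitors hold E2F factors. Its values were 9.35, 9.59 and 9.55 in Zmpste24-/- ventilated lungs and 9.47, 9.38 and 9.49 in Zmpste24-/- baseline lungs. Wild type lungs gave 9.57, 9.76 and 9.63 after ventilation and 9.89, 9.74 and 9.48 at baseline. Zmpste24-/- lungs were on average lower by 0.16 ± 0.11 under ventilation (adjusted p = 0.408) and by 0.26 ± 0.11 at baseline (adjusted p = 0.185), with overlapping ranges in both. With 1 array left out the baseline difference ran from -0.37 ± 0.10 without wild type baseline lung 3, the lowest of its group (adjusted p = 0.0489), to -0.16 ± 0.11 without wild type baseline lung 1 (adjusted p = 0.47). It was -0.08 ± 0.11 with both single-symbol probes averaged (adjusted p = 0.74). Differences with ventilation were 0.05 ± 0.11 in Zmpste24-/- lungs and -0.05 ± 0.11 in wild type lungs, or 0.18 ± 0.11 and 0.14 ± 0.11 with both probes averaged, none past the threshold. A second probe paired with Rb1 alone read 5.62 to 6.13 after ventilation and 5.33 to 5.74 at baseline in Zmpste24-/- lungs. The wild type readings were 5.70 to 5.86 after ventilation and 5.33 to 5.54 at baseline, so the order of its groups was not that of the first probe.

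**Figure D2:**
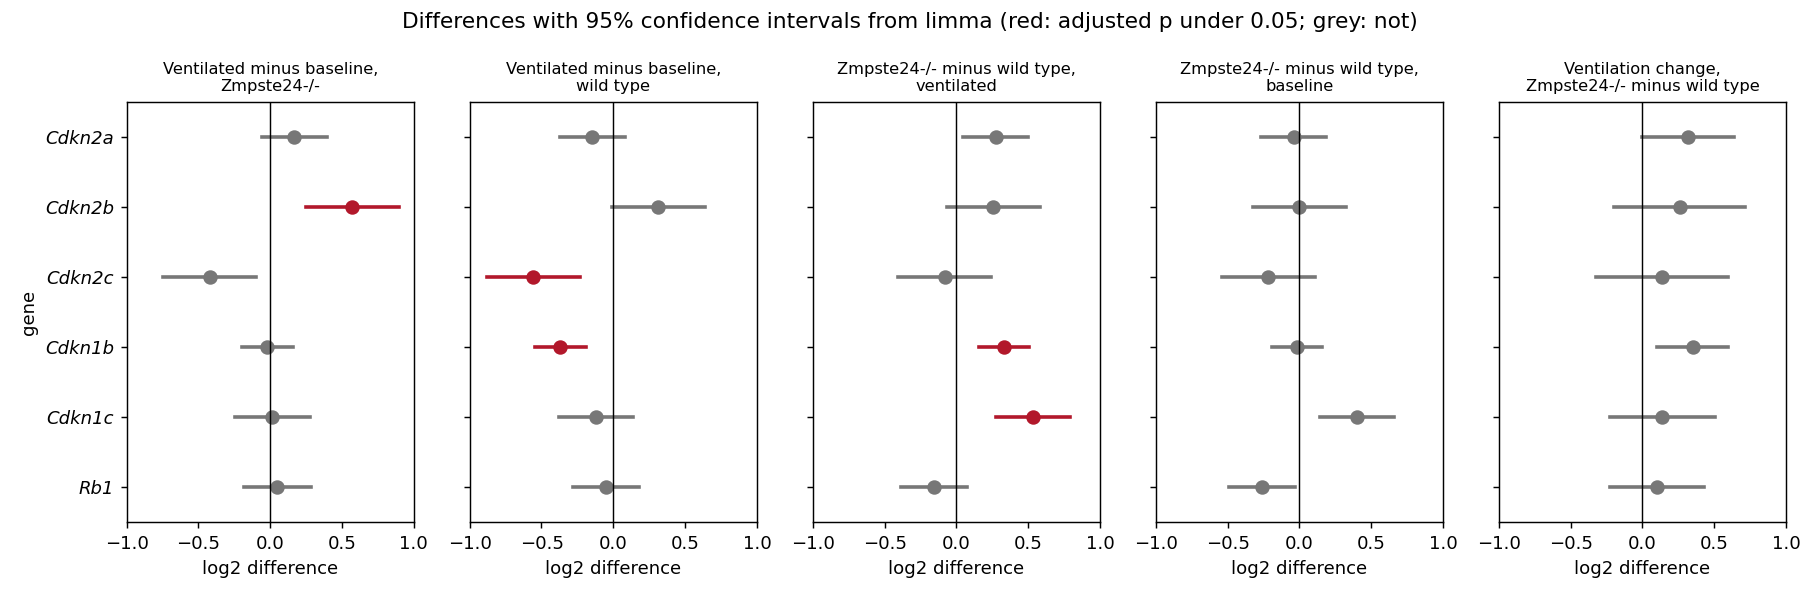
Log2 differences of the 6 measured genes (points) with 95% confidence intervals from limma (lines) in the 4 pairwise comparisons and the interaction. Red marks an adjusted p under 0.05: Cdkn2b for ventilation in Zmpste24-/- lungs, Cdkn2c and Cdkn1b for ventilation in wild type lungs, and Cdkn1b and Cdkn1c between genotypes under ventilation.

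The order of the group means differed between members, and few neighbours in it were apart. For Cdkn2b it ran, from low to high, Zmpste24-/- baseline, wild type baseline, wild type ventilated and Zmpste24-/- ventilated, each overlapping the next. For Cdkn2c the order was Zmpste24-/- ventilated, wild type ventilated, Zmpste24-/- baseline and wild type baseline, and only the step between wild type ventilated and Zmpste24-/- baseline lungs was free of overlap. Cdkn1b had a single such step, above wild type ventilated lungs, and Cdkn1c one between wild type baseline and Zmpste24-/- baseline lungs. For Cdkn2a and Rb1 every neighbouring group overlapped.

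The genes whose 12 array values, centred on the wild type baseline mean, lay closest to those of each member that passed were read off as a description, among 5120 named genes that passed in a pairwise comparison. For Cdkn2b these were Nedd4l, a ubiquitin ligase known for controlling the epithelial sodium channel, Mocs1 and Rassf2, with root mean square differences of 0.13, 0.13 and 0.14 log2 units, against 0.37 for Cdkn2b's own departure from the wild type baseline mean. For Cdkn2c they were Dock4, Nrp1, a co-receptor for VEGF, and Angpt1, a ligand of the endothelial receptor TEK, at 0.13, 0.14 and 0.14 against 0.47. Angpt1 averaged 8.48 ± 0.12 in Zmpste24-/- ventilated, 9.12 ± 0.19 in Zmpste24-/- baseline, 8.58 ± 0.12 in wild type ventilated and 9.18 ± 0.27 in wild type baseline lungs (SD, n = 3 each). Cdkn1b was closest to Kif7, a kinesin of primary cilia, Ntn4 and Osbpl2, at 0.08, 0.10 and 0.10 against 0.20, and Cdkn1c to Scoc, Tcl1b2 and Gal3st1, at 0.13 each against 0.32. These points share their libraries, and a small distance shows only like values.

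Genes that work beside the members were taken from lists chosen by pathway, whose counts of genes past the threshold are given with the range over fits that left out 1 array of the compared groups. Of all genes, 16.4% passed for ventilation in Zmpste24-/- lungs (8.89% higher, 7.52% lower) and 7.2% in wild type lungs (3.67% and 3.53%). Between genotypes 10.8% passed under ventilation (4.72% and 6.08%) and 6.31% at baseline (2.2% and 4.11%), and 0.316% passed the interaction. An unadjusted limma p was under 0.05 for 4530 of the 22180 genes for ventilation in wild type lungs. The number was 4635 between genotypes at baseline and 2598 in the interaction. No list count was tested against these shares and numbers. Among the cyclins and kinases on which the inhibitors act, Ccnd1 and Cdk6 were lower in ventilated Zmpste24-/- than in ventilated wild type lungs. Ccnd1, the main D-type cyclin of epithelium, averaged 8.34 in Zmpste24-/- ventilated lungs, 1.11 ± 0.12 below 9.45 in wild type ventilated lungs (adjusted p = 0.000143) and 0.99 ± 0.12 below 9.34 in Zmpste24-/- baseline lungs (adjusted p = 8.01e-05). Cdk6 was lower in Zmpste24-/- than in wild type lungs under ventilation (-0.67 ± 0.11, adjusted p = 0.00204) and at baseline (-0.47 ± 0.11, adjusted p = 0.0219). After ventilation in Zmpste24-/- lungs Cdk4 was also lower (-0.34 ± 0.08) and Cdk2 higher (0.37 ± 0.09). In counts, of 9 measured genes 1 was higher (0 to 1, none without ventilated lung 2) and 2 were lower (2 to 2) after ventilation in Zmpste24-/- lungs, with a median of -0.08, and 2 were lower between genotypes under ventilation (2 to 2, median -0.17). At baseline Cdk6 and Cdk2 were the 2 lower genes (0 to 2, none without wild type baseline lung 1 or 2 or Zmpste24-/- baseline lung 2 or 3 and 1 without wild type baseline lung 3, median -0.18). Ventilation in wild type lungs left all 9 short of the threshold in limma, 1 of them with an unadjusted p under 0.05 (median 0.04).

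Of the 5 other kinase inhibitors and their partners, Cdkn1a, the CIP/KIP inhibitor p21 and a p53 target, rose in both genotypes. It rose by 2.78 ± 0.20 in Zmpste24-/- lungs (means 11.50 against 8.72, adjusted p = 1.75e-06) and by 1.52 ± 0.20 in wild type lungs (10.67 against 9.15, adjusted p = 0.000524). Cdkn2aip, which encodes a partner of ARF, rose by 0.63 ± 0.14 and 0.59 ± 0.14 in the same comparisons. The list thus had 2 genes higher in Zmpste24-/- lungs (2 to 2, median 0.24) and 2 in wild type lungs (1 to 2, 1 without baseline lung 2 or 3 or ventilated lung 2 or 3, median 0.07). Cdkn1a alone passed between genotypes under ventilation (0.83 ± 0.20, adjusted p = 0.016), and did not without Zmpste24-/- ventilated lung 2 or wild type ventilated lung 1 (median 0.06). At baseline none of the 5 passed in limma, and 1 had an unadjusted p under 0.05 (median -0.00).

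Downstream of the inhibitors, pocket proteins and E2F factors were read beside 16.4% of all genes past the threshold for ventilation in Zmpste24-/- lungs. The share of all genes was 7.2% for ventilation in wild type lungs, 10.8% between genotypes under ventilation and 6.31% at baseline. Of 17 genes 2 rose after ventilation in Zmpste24-/- lungs (1 to 2, 1 without ventilated lung 2 or 3 or baseline lung 3, median 0.01), the repressor E2f6 (0.80 ± 0.17) and Lin54 (0.36 ± 0.11), and the Rb1 relative Rbl2 fell (-0.40 ± 0.09), which it did not without ventilated lung 3. Under ventilation Tfdp2, which encodes a dimer partner of E2F factors, was 0.57 ± 0.10 higher in Zmpste24-/- than in wild type lungs (median 0.07), and without Zmpste24-/- ventilated lung 1 there were 2 such genes. No gene of the list passed for ventilation in wild type lungs (median 0.01) or between genotypes at baseline (median 0.01) in limma. There 4 and 4 had an unadjusted p under 0.05, beside 4530 and 4635 of 22180 genes. Among 20 proliferation genes driven by E2F, 2 rose after ventilation in Zmpste24-/- lungs (2 to 2, median 0.02), the replication clamp Pcna (0.80 ± 0.08) and the mitotic cyclin Ccnb2 (0.44 ± 0.10), and 1 in wild type lungs (1 to 1, median -0.00), Ccnb2 (0.59 ± 0.10). Between genotypes under ventilation Pcna was 0.61 ± 0.08 higher in Zmpste24-/- lungs while Ccnb2 (-0.54 ± 0.10), Top2a (-0.67 ± 0.18), Plk1 (-0.35 ± 0.10) and Mki67 (-0.71 ± 0.21, named after its value was seen) were lower (median -0.13). The lower genes of that comparison numbered 4, against 1 without wild type ventilated lung 2 or 3 or Zmpste24-/- ventilated lung 2 or 3, and 2 without Zmpste24-/- ventilated lung 1. At baseline Bub1 (-0.43 ± 0.11) and Ccnb2 (-0.39 ± 0.10) were lower in Zmpste24-/- lungs (none without wild type baseline lung 1 or Zmpste24-/- baseline lung 2 and 1 without any other array of these groups, median -0.08).

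Upstream of Cdkn2a and beside ARF, Mdm2, the p53 ligase that ARF inhibits, rose by 0.71 ± 0.09 in Zmpste24-/- lungs and 0.39 ± 0.09 in wild type lungs after ventilation. With the p53 target Sesn2 (1.86 ± 0.16 and 1.15 ± 0.16) it made up the 2 higher genes of 10 in Zmpste24-/- lungs (2 to 2, median 0.04) and in wild type lungs (1 to 3, 1 without ventilated lung 2 or 3 or baseline lung 3, median 0.03). Npm1, whose product binds ARF in the nucleolus, was higher in Zmpste24-/- than in wild type lungs under ventilation (0.39 ± 0.08), as was Sesn2 (0.75 ± 0.16; list median 0.13), and at baseline (0.30 ± 0.08; median -0.05), where it did not pass without wild type baseline lung 1 or any 1 of the Zmpste24-/- baseline lungs. Polycomb and other regulators of the Cdkn2a locus went both ways. Of 18 genes 4 rose and 3 fell after ventilation in Zmpste24-/- lungs (3 to 5 and 2 to 2, median -0.01), among them the H3K27 demethylase Kdm6b (0.85 ± 0.11), the Polycomb ligase Rnf2 (0.66 ± 0.08), Ets2 (0.63 ± 0.08) and the repressor Tbx2 (-0.72 ± 0.10). In wild type lungs 2 rose and 3 fell (0 to 1 and 2 to 3, median -0.00), with Tbx2 (-0.88 ± 0.10), Id1 (-1.12 ± 0.13) and Kdm6b (0.47 ± 0.11). No gene of the list was higher without baseline lung 1 or 2 or ventilated lung 1 and 1 was without any other array. Between genotypes under ventilation 3 were higher and 3 lower (2 to 4 and 1 to 3, median 0.05), with Rnf2 (0.50 ± 0.08) and Ets1 (-0.45 ± 0.09). Only 1 was lower without wild type ventilated lung 3 or Zmpste24-/- ventilated lung 1 or 2. At baseline Ets1 (-0.57 ± 0.09) and Tbx2 (-0.56 ± 0.10) were lower in Zmpste24-/- lungs (2 to 2, median -0.01).

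Among regulators of Cdkn2b, Myc, whose product represses Cdkn2b, rose by 2.57 ± 0.17 in Zmpste24-/- lungs and by 1.37 ± 0.17 in wild type lungs, and Smad6, an inhibitory SMAD, fell by 0.71 ± 0.11 and 1.29 ± 0.11. Of 14 genes in the TGF-beta, SMAD and MYC list 5 rose and 1 fell in Zmpste24-/- lungs (3 to 5 and 1 to 1, 3 higher without ventilated lung 2 or 3, median 0.17), also Skil (0.81 ± 0.12) and Tgfbr1 (0.53 ± 0.09). In wild type lungs 1 rose and 3 fell (1 to 1 and 3 to 3, median -0.01), also Smad7 (-0.60 ± 0.11) and Tgfb3 (-0.44 ± 0.09). Under ventilation Myc (0.97 ± 0.17) and Skil (0.55 ± 0.12) were higher in Zmpste24-/- than in wild type lungs (2 to 3, median 0.08). At baseline Tgfb3 (-0.59 ± 0.09) and Tgfb1 (-0.47 ± 0.09) were lower in Zmpste24-/- lungs (1 to 2, 1 without Zmpste24-/- baseline lung 3, median -0.22).

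Regulators of Cdkn1b included Foxo3, a forkhead factor known to activate Cdkn1b, which rose by 0.45 ± 0.10 in Zmpste24-/- lungs and 0.43 ± 0.10 in wild type lungs after ventilation. Of 11 genes 2 rose and 1 fell in Zmpste24-/- lungs (2 to 2 and 0 to 1, median 0.09), Foxo3 with Cul1 (0.50 ± 0.11), the scaffold of the SCF ligase, against Rnf123 (-0.28 ± 0.08), the ligase KPC1, while no gene of the list was lower in 5 of 6 fits with 1 array left out (each but that without ventilated lung 2). Foxo3 was the 1 higher gene in wild type lungs (0 to 1, none without baseline lung 1 or 2 or ventilated lung 2 or 3, median 0.02). Under ventilation Cul1 was higher (0.38 ± 0.11) and Rnf123 lower (-0.29 ± 0.08) in Zmpste24-/- than in wild type lungs (0 to 1 and 0 to 1, none of either direction without Zmpste24-/- ventilated lung 3 or any 1 of the wild type ventilated lungs, none higher without Zmpste24-/- ventilated lung 2 and none lower without lung 1, median 0.12). At baseline none passed in limma, and 2 had an unadjusted p under 0.05 (median 0.05).

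Cdkn1c lies in a cluster of imprinted genes, and 17 genes of a growth-related imprinted network were measured, some from that cluster and others, such as Mest, Plagl1 and Peg3, from other loci. After ventilation in Zmpste24-/- lungs 4 rose and 2 fell (3 to 4 and 0 to 2, median 0.06), led by Mest (1.08 ± 0.10), Kcnq1ot1 (0.56 ± 0.10), the antisense RNA known for silencing the cluster on the paternal allele, Phlda2 (0.62 ± 0.14) and Plagl1 (0.35 ± 0.08). No gene was lower without baseline lung 1 or 3 or ventilated lung 2 or 3 and 1 was without ventilated lung 1. In wild type lungs Kcnq1ot1 alone passed (0.36 ± 0.10, median -0.05), and no gene was higher in 5 of 6 fits with 1 array left out (each but that without ventilated lung 2). Where Cdkn1c differed between ventilated genotypes, 4 of the 17 were higher in Zmpste24-/- lungs and 1 was lower (2 to 3 and 1 to 2, median 0.09). There were 2 higher without Zmpste24-/- ventilated lung 3 or wild type ventilated lung 2 or 3, and 2 lower without wild type ventilated lung 1. The higher genes were Plagl1 (0.49 ± 0.08), Peg3 (0.58 ± 0.12) and Phlda2 (0.59 ± 0.14), with Igf2 (0.33 ± 0.10, named after its value was seen), and the lower one was Kcnq1 (-0.45 ± 0.08). At baseline Mest (-0.68 ± 0.10) and Kcnq1 (-0.36 ± 0.08) were lower in Zmpste24-/- lungs (1 to 2, 1 without Zmpste24-/- baseline lung 2 or 3 or wild type baseline lung 3, median -0.06). Mest also passed the interaction (0.85 ± 0.14, adjusted p = 0.0388). Kcnq1 and Kcnq1ot1 overlap on opposite strands, and their probes were not checked for strand here.

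In place of Glb1 and Gdf15 themselves, lists of genes grouped around them were read. Of 21 lysosomal hydrolases and partners of beta-galactosidase, 2 rose and 3 fell after ventilation in Zmpste24-/- lungs (1 to 3 and 1 to 3, with at least one of these counts moved by each left-out array, median -0.14), with Tfe3, a factor that drives lysosomal genes, higher (0.82 ± 0.10) and the beta-galactosidase relatives Glb1l (-0.55 ± 0.12) and Glb1l2 (-0.51 ± 0.14) lower. Tfe3 was the 1 gene higher in wild type lungs (0.42 ± 0.10; 0 to 1, none without ventilated lung 1 or 3 or baseline lung 1 or 2, median -0.10). Between genotypes under ventilation 4 were lower in Zmpste24-/- lungs (1 to 6, median -0.06), Glb1l (-0.62 ± 0.12), the glucuronidase Gusb (-0.56 ± 0.13), the saposin precursor Psap (-0.38 ± 0.09) and Ctsa (-0.31 ± 0.09), whose product protects beta-galactosidase in the lysosome. The count was 1 without wild type ventilated lung 3 or Zmpste24-/- ventilated lung 3, and 2 without ventilated lung 2 of either genotype. At baseline none passed in limma (median -0.15), and 6 had an unadjusted p under 0.05, beside 4635 of all 22180 genes. Gdf15 encodes a circulating stress cytokine. The list around its inducers, processing and receptor also held genes that are none of these, such as Chac1 and Trib3. Of its 14 measured genes, 8 were higher in Zmpste24-/- lungs (8 to 8, median 0.58) and 5 in wild type lungs (4 to 5, median 0.21) after ventilation. They were led by Atf3 (4.01 ± 0.25 and 2.48 ± 0.25), Chac1 (3.29 ± 0.22 and 1.91 ± 0.22), Atf4 (1.51 ± 0.11 and 0.96 ± 0.11) and Ddit3 (1.07 ± 0.08 and 0.45 ± 0.08). Under ventilation 6 were higher in Zmpste24-/- than in wild type lungs (6 to 7, median 0.33), with Ddit3 (0.69 ± 0.08) and Egr1 (2.00 ± 0.37), and Ddit3 passed the interaction (0.62 ± 0.12, adjusted p = 0.0468). At baseline none passed in limma, and 1 had an unadjusted p under 0.05 (median -0.02).

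A further list held genes linked to the secretome of senescent cells, not all of which encode secreted factors. Of its 22 measured genes, 7 were higher and 2 lower after ventilation in Zmpste24-/- lungs (5 to 7 and 1 to 2, 1 lower without ventilated lung 2 or 3 or baseline lung 1 or 3, median 0.17), with the receptor gene Plaur (1.98 ± 0.19), Il6 (2.17 ± 0.30), Timp1 (0.97 ± 0.14) and Ccl2 (1.18 ± 0.20). In wild type lungs 2 were higher (1 to 2, 1 without baseline lung 1 or 2 or ventilated lung 3, median 0.05), Plaur (1.34 ± 0.19) and Timp1 (0.52 ± 0.14). Between genotypes under ventilation 3 were higher and 2 lower in Zmpste24-/- lungs (0 to 5 and 1 to 2, median -0.10), and no gene was higher without wild type ventilated lung 2 or 3 or Zmpste24-/- ventilated lung 3, 1 was without Zmpste24-/- ventilated lung 2 and 5 were without wild type ventilated lung 1. The lower genes numbered 1 in every one of those fits but the last, and 1 without Zmpste24-/- ventilated lung 1. At baseline 4 were lower in Zmpste24-/- lungs (1 to 3, 1 without Zmpste24-/- baseline lung 3 and 2 without wild type baseline lung 1 or 2, median -0.17), Plau (-0.64 ± 0.10), Igfbp3 (-0.58 ± 0.13), Hgf (-0.61 ± 0.14) and Il1a (-0.74 ± 0.19). In the interaction Mest and Ddit3 were the genes of these 12 lists past the limma threshold. Per list 0 to 8 genes had an unadjusted p under 0.05 there, beside 2598 of all 22180 genes. With 1 array left out, no gene of the imprinted list passed the interaction in 9 of 12 fits and none of the Gdf15 list in 10 of 12.

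**Figure D3:**
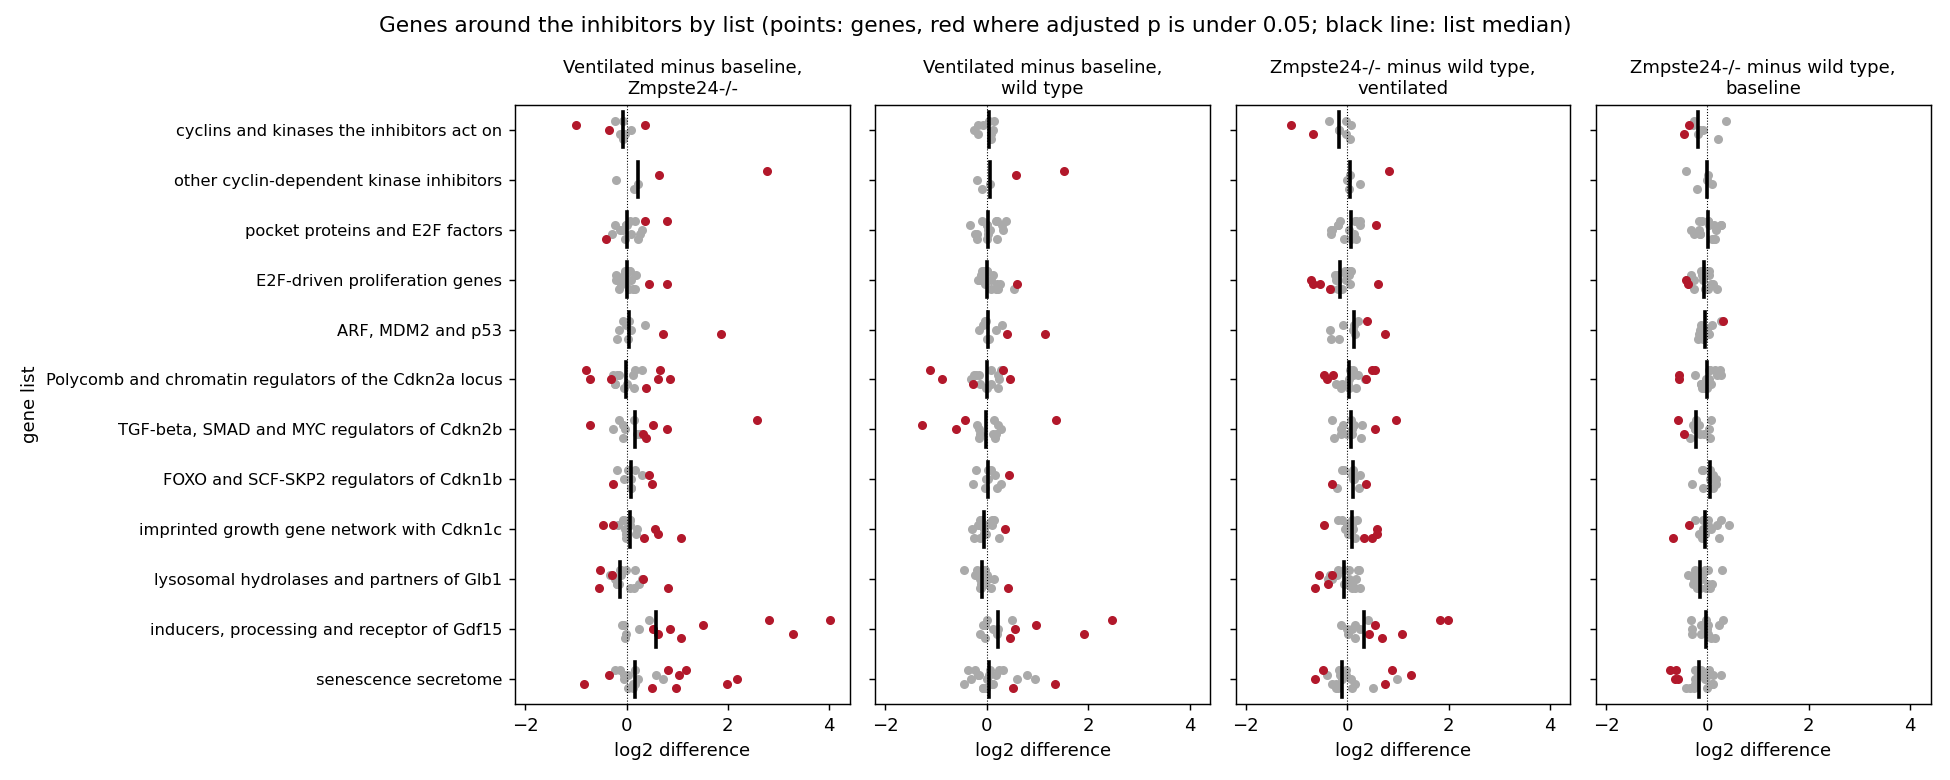
Log2 differences of the measured genes of each pathway list in the 4 pairwise comparisons. Points are genes, red where the adjusted p is under 0.05, and the black line is the list median. The highest median is that of the list named for Gdf15 after ventilation in Zmpste24-/- lungs, at 0.58.

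Markers of several lung cell types moved in the same comparisons as the members. Of all genes, 16.4% passed for ventilation in Zmpste24-/- lungs, 7.2% in wild type lungs, 10.8% between genotypes under ventilation and 6.31% at baseline. Endothelial markers fell in 11 of 16 genes after ventilation in Zmpste24-/- lungs (8 to 11) and in 12 of 16 in wild type lungs (9 to 12), and 4 were lower and 1 higher between genotypes under ventilation (2 to 4 and 0 to 0, 2 lower without wild type ventilated lung 2 or 3 or Zmpste24-/- ventilated lung 3). Their mean lay at 9.22 to 9.41 in Zmpste24-/- ventilated, 9.69 to 9.83 in Zmpste24-/- baseline, 9.45 to 9.54 in wild type ventilated and 10.08 to 10.15 in wild type baseline lungs. Neutrophil markers rose in 9 of 13 genes in Zmpste24-/- lungs (8 to 10) and 5 of 13 in wild type lungs (2 to 5, 2 without baseline lung 2 or 3 or ventilated lung 1 or 3), and 7 were higher between genotypes under ventilation (6 to 8). The neutrophil mean was 7.88 to 8.03 in Zmpste24-/- ventilated, 6.42 to 7.08 in Zmpste24-/- baseline, 6.94 to 7.32 in wild type ventilated and 6.18 to 6.67 in wild type baseline lungs. Fibroblast and smooth muscle markers were lower between genotypes in 6 of 14 genes under ventilation (5 to 7), where 1 was higher, and in 4 at baseline (4 to 6). After ventilation 5 were lower in Zmpste24-/- lungs (5 to 5) and 4 in wild type lungs (2 to 4, 2 without ventilated lung 3 or baseline lung 1). That mean was 8.79 to 8.87 in Zmpste24-/- ventilated, 9.08 to 9.44 in Zmpste24-/- baseline, 9.35 to 9.75 in wild type ventilated and 9.59 to 9.73 in wild type baseline lungs. Lymphocyte markers were lower between genotypes in 8 of 10 genes under ventilation (7 to 8) and in 8 at baseline (5 to 8, 5 without Zmpste24-/- baseline lung 3 or wild type baseline lung 1). Their means were 5.93 to 6.13 and 6.23 to 6.48 in Zmpste24-/- ventilated and baseline lungs against 6.79 to 6.98 and 7.20 to 7.48 in wild type ventilated and baseline lungs. After ventilation 5 lymphocyte markers were lower in Zmpste24-/- lungs (0 to 3, none without ventilated lung 1 or 3, 1 without baseline lung 1 or 2 and 3 without ventilated lung 2 or baseline lung 3) and 3 in wild type lungs (1 to 3, 1 without ventilated lung 1). The lists shift in the comparisons in which Cdkn2b, Cdkn2c, Cdkn1b and Cdkn1c passed, and their part in those results was not tested.

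**Figure D4:**
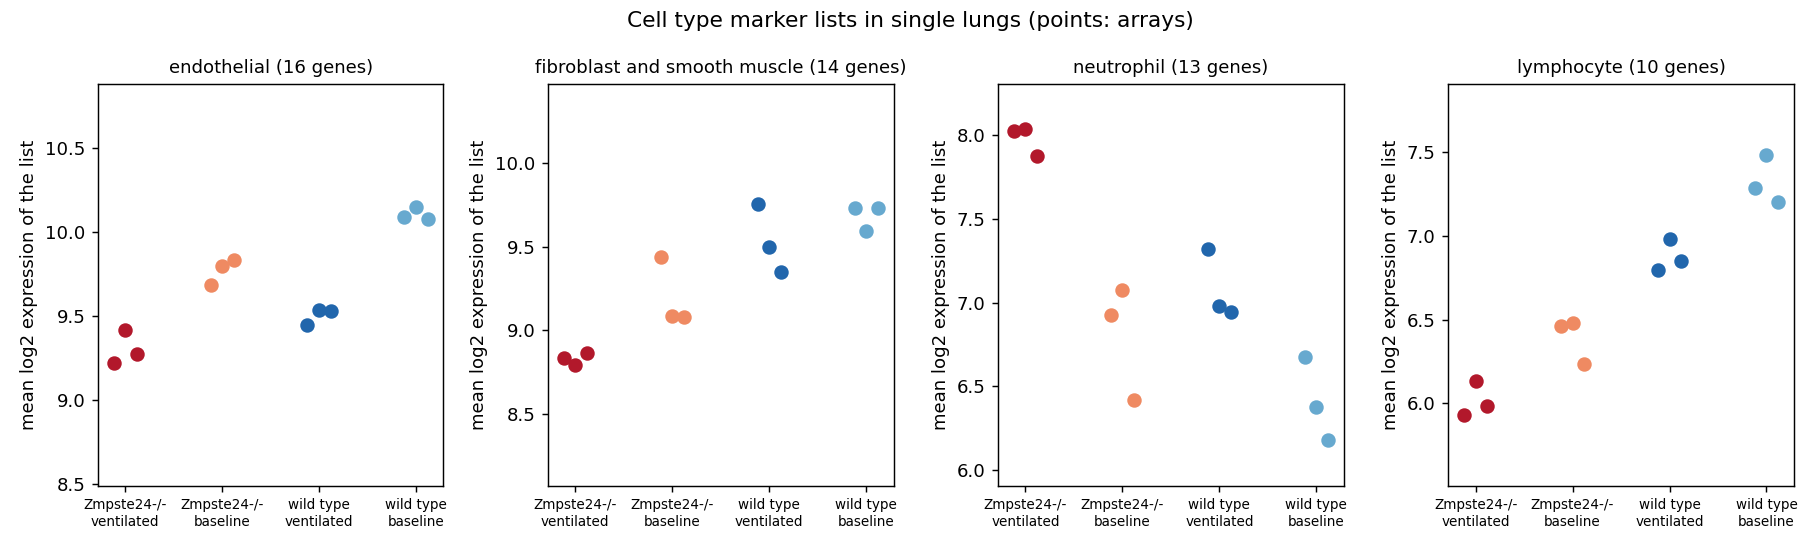
Mean log2 expression of 4 cell type marker lists in every lung (points), by group, with all panels spanning 2.4 log2 units. Endothelial markers are lower in ventilated than in baseline lungs of each genotype, neutrophil markers are highest in Zmpste24-/- ventilated lungs (7.88 to 8.03), and lymphocyte markers are lower in Zmpste24-/- than in wild type lungs.

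Counts for the other marker lists, and those remaining for the lists above, are to be read beside the same shares of all genes. After ventilation in Zmpste24-/- lungs 3 of 7 club and ciliated markers (1 to 4, 1 without ventilated lung 2), 2 of 8 alveolar type 2 markers (1 to 2, 1 without ventilated lung 2 or 3) and 1 of 8 alveolar type 1 markers (1 to 1) were lower. In wild type lungs 1 alveolar type 2 (0 to 1), 1 alveolar type 1 (1 to 2), 1 of 13 macrophage (0 to 1) and 2 of 8 liver markers (0 to 3, none without ventilated lung 3) were lower, and 1 of 10 heart and skeletal muscle markers was higher (0 to 1). Between genotypes under ventilation 2 alveolar type 2 markers (0 to 2), 1 club and ciliated, 1 macrophage, 1 heart and muscle and 1 of 5 thymocyte markers (0 to 1 each) were lower in Zmpste24-/- lungs, and 2 alveolar type 1 markers (1 to 2) and 1 macrophage marker (0 to 1) were higher. At baseline 7 endothelial, 3 macrophage (2 to 4) and 4 liver markers (2 to 5, 2 without Zmpste24-/- baseline lung 1 or 3) were lower in Zmpste24-/- lungs, and 1 neutrophil (1 to 5, 5 without Zmpste24-/- baseline lung 3) and 1 heart and muscle marker (0 to 1) were higher. The 7 endothelial markers became 3 without wild type baseline lung 2 or any 1 of the Zmpste24-/- baseline lungs, and 4 without wild type baseline lung 1. In the interaction 1 fibroblast and smooth muscle marker passed, and none was higher in 9 of 12 fits with 1 array left out.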

How the data were processed

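The deposited table held log2 expression values for 41345 probes on 12 arrays, and the submitters' processing notes name RMA and limma. That the values are log2 was read from their range. Other steps of the authors' processing are not given here. Platform annotation paired 23521 probes with 1 symbol, 1814 with several and 16010 with none, and symbols were updated by gene identifier to RefSeq (GRCm38.p6) for 23328 probes. Each of 22180 genes was represented by its brightest single-symbol probe on average.

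One mean per group was estimated from the 12 arrays together by limma (version 3.58.1, R version 4.3.3), with moderated variances, after a test on simulated data. Comparisons were ventilation in each genotype, genotype in each condition, and the interaction, with Benjamini-Hochberg adjustment over all genes. The number of arrays, 3 per group, limits the precision, and no scan dates were used here, so batches were not tested. Genes named were all members, Zmpste24, up to 4 genes of each pathway list with the smallest adjusted p past the threshold, and the 3 genes closest to each member that passed. Members and gene lists (12 pathway lists and 11 cell type lists) were chosen with earlier results of these data known. Alternatives were a filter at the 25th percentile of mean expression, array medians subtracted, compared groups fitted alone, a replicate block, eBayes with trend and robust settings, the mean of all single-symbol probes, and leaving out each array.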

Additional observations from a re-analysis of the deposited data

How the results depend on the processing

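Of 390 recomputed member values 370 kept their side of the threshold, 17 lost the call and 3 gained it. Most of the 390 belong to results not called in the main fit, which had no call to lose. With 1 array left out, Cdkn2c kept its wild type call in 1 of 6 fits and Cdkn1b in 3 of 6. Cdkn2b in Zmpste24-/- lungs and Cdkn1b between ventilated genotypes each kept theirs in 3 of 6. In the other alternatives these calls were kept, in that order, in 4, 5, 6 and 6 of 6 runs. A called value reversed in 0, and 17 of the 370, none of them called, changed sign, among them Rb1 for ventilation in wild type lungs with both probes averaged (0.14, against -0.05). Cdkn1c between genotypes under ventilation passed in every alternative run. For ventilation in wild type lungs the members past the threshold numbered 0 with the compared groups fitted alone, where 923 genes passed in all, and 0 to 2 with 1 array left out, where 799 to 1307 genes passed (lowest without ventilated lung 3). With 1 array left out the members past the threshold numbered 0 to 2 for ventilation in Zmpste24-/- lungs (2432 to 3165 genes), 1 to 2 between genotypes under ventilation (1369 to 2510 genes, lowest without wild type ventilated lung 2) and 0 to 2 at baseline (646 to 1314 genes, lowest without Zmpste24-/- baseline lung 3). The interaction had 70 genes, 112 with trend and robust settings, and 8 to 118 with 1 array left out. The cause of these shifts was not tested.

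Same-numbered deviations from the group means correlated at -0.15 to 0.15, over 0.1 in 2 of 18 pairs. Arrays with unlike numbers were not compared, so these values cannot decide whether replicate numbers pair the samples. With a replicate block 1 member passed for ventilation in wild type lungs (Cdkn2c had an adjusted p of 0.0551) and 43 genes passed the interaction. With 3 arrays per group and no background level, differences at low signal are the least certain.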
